A study of Mus musculus with 4 samples.

Results

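Alb, Afp, Afm and Gc are 4 neighbouring genes of the albumin family on mouse chromosome 5, which encode carrier proteins of blood plasma. They were found by gene symbol, and all 4 had a row among the 21878 rows of each table. Expression was measured by RNA sequencing in 2 libraries of progenitor-like cells derived by culture of hepatocytes (HepLPC) and in 2 libraries of such cells derived from liver non-parenchymal cells (NPC_LPC). All 4 libraries came from C57BL/6 mice labelled 6 to 8 weeks old, where the treatment protocol gives 8 weeks, and both kinds of cell were cultured in transition and expansion media. The treatment protocol lists tdTomato mice that received AAV8-TBG-Cre, a virus that carries Cre under a promoter active in hepatocytes, and AlbCreERT/R26GFP mice, in which an inducible Cre is driven from Alb sequences. It lists them in the order of hepatocytes and non-parenchymal cells. If they were used that way, mouse line and virus follow the origin of the cells and cannot be told apart from it, and the NPC_LPC mice carried a transgene or allele built on a member of this family. The cell type label of the HepLPC libraries names hepatocytes and non-parenchymal cells together, and the titles decided the groups. The labels do not say whether replicates came from separate mice or cultures.

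Albumin is the main protein of plasma and the most abundant secretory product of mature hepatocytes. Alpha-fetoprotein, the product of Afp, takes its place in the fetal liver and is shut off after birth, and it returns in regenerating liver and in hepatocellular carcinoma. Afamin, the product of Afm, binds vitamin E and carries Wnt proteins, and the product of Gc, vitamin D-binding protein, carries vitamin D metabolites and captures actin released from damaged cells. The genes arose by duplication of a common ancestor and are classical targets of the hepatocyte factors of the C/EBP and FOXA families.

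Alb, Afp and Afm lie in tandem on the plus strand, with 14.1 kb between Alb and Afp and 10.04 kb between Afp and Afm (GRCm38, RefSeq). Alb spans chr5:90460870-90476602, Afp chr5:90490714-90508907 and Afm chr5:90518949-90553544. Gc spans chr5:89417511-89457898 on the minus strand, 1.003 Mb from Alb. The promoters, from 250 bases before to 50 bases after the RefSeq start, are shown because all 4 members share a short element in them. Capitals mark GTTAAT (the shared element), TATAAA (a spelling of the TATA box) and CCAAT, each searched on both strands. The windows are chr5:89457849-89458148 (minus strand) for Gc, chr5:90460620-90460919 for Alb, chr5:90490464-90490763 for Afp and chr5:90518699-90518998 for Afm, all from RefSeq on GRCm38.p6.
Gc: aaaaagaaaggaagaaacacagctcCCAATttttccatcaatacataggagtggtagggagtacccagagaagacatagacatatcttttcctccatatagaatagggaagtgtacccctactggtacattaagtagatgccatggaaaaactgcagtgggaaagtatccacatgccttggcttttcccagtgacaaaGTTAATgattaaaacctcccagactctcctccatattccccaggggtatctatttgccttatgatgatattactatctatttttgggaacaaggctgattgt
Alb: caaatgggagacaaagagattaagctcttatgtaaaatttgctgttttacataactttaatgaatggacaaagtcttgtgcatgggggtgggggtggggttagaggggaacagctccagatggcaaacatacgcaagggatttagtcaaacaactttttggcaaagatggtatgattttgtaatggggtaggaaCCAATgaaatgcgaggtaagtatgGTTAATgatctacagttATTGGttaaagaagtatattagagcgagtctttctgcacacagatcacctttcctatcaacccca
Afp: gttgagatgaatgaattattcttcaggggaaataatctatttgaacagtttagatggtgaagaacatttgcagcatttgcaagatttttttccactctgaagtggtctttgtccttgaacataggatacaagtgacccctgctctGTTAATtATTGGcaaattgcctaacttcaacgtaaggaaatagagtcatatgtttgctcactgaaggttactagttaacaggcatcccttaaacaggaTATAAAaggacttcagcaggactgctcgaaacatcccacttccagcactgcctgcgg
Afm: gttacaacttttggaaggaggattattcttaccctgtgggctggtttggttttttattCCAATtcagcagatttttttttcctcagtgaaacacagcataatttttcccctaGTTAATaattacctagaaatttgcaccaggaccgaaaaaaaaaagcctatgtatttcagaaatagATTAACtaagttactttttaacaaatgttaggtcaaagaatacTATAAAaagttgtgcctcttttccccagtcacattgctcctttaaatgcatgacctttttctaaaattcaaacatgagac

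GTTAAT began 52 bases before the RefSeq start in Gc, 32 bases before it in Alb, 105 bases before it in Afp and 138 bases before it in Afm. Counted from the start that GENCODE gives, the element began 59 bases before it in Alb and 128 bases before it in Afp. In Gc and Afm the RefSeq and GENCODE starts were the same. Afm held a further copy on the opposite strand, 73 bases before the start. Of the 32851 promoter windows in the RefSeq table, 7.10% hold GTTAAT. In each of the 4 members this element runs on into the longer form GTTAATNAT, where N is any base, which 0.801% of the windows hold and which was picked after the members' sequences had been seen. TATAAA stood 7 bases before the RefSeq start in Afp, which is 30 bases before the start that GENCODE gives for this gene, and 30 bases before the start in Afm. This exact spelling was not found in Alb or Gc, and 13.6% of all windows hold it. Other spellings of a TATA box were not searched, so whether Alb or Gc has such a box is not shown. CCAAT was found in all 4 members and in 37.4% of all windows. The FOXA motif TGTTTAC was not found in any of the 4 windows, while 3.65% of all windows hold it. These matches describe letters in a window and are not bound sites.

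The 4 libraries had between 17575998 and 20625957 counts. Values are given as CPM, counts scaled by library size, for the same gene in different libraries, and as FPKM, which also corrects for transcript length, for different genes. A count of 3 equals between 0.149 and 0.169 CPM and is used as the floor. Markers of mature hepatocytes were nearly silent in all 4 libraries, since 7 of 10 fixed markers, among them Cyp2e1, Cyp3a11 and Tat, had at most 3 counts in each library. Hnf4a was the exception, and Cps1 and Asgr1 stayed at or below 0.389 CPM. The members were selected on gene symbol, but the family was chosen by its CPM values in HepLPC and NPC_LPC, which were already known, and so differences of the members between HepLPC and NPC_LPC are given as a description, with no test.

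Gc, the vitamin D-binding protein gene, was the dominant member of the family in every library and was far lower in HepLPC than in NPC_LPC. It had 655 and 434 counts in HepLPC replicates 1 and 2, or 36.4 and 24.4 CPM, against 11133 and 12704 counts in NPC_LPC replicates 1 and 2, or 611 and 629 CPM. The NPC_LPC libraries were nearly equal, and the groups did not overlap. The means were 30.4 ± 8.44 CPM in HepLPC and 619.8 ± 12.9 CPM in NPC_LPC (SD, n = 2 each), a level 20.4-fold lower in HepLPC. The fitted log2 fold change of HepLPC over NPC_LPC was -4.35 (SE 0.32). The mean FPKM was 20.5-fold lower in HepLPC, with 12.6 ± 3.51 FPKM in HepLPC and 257.7 ± 11.4 FPKM in NPC_LPC. Fewer cells that express a gene and less RNA of it per cell cannot be told apart in such bulk libraries, for Gc or for any other gene here.

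Within the HepLPC group, Gc was 1.49-fold higher in replicate 1 than in replicate 2 (95% interval 1.32 to 1.68, counting error only). Within the NPC_LPC group, replicate 2 was 1.03-fold above replicate 1 (1.004 to 1.06). The gap between the groups was thus many times that between replicates. Without any 1 of the 4 libraries, the log2 ratio of mean CPM stayed between -4.65 and -4.09.

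Ranked by FPKM among all genes, Gc stood at place 3612 in HepLPC replicate 1 and 4786 in HepLPC replicate 2, and at places 165 and 162 in NPC_LPC replicates 1 and 2. It lay above 73.9% and 65.8% of the genes with an FPKM above 0 in the HepLPC libraries, and above 98.8% of them in both NPC_LPC libraries. In NPC_LPC cells Gc was thus among the strongly expressed genes of the whole transcriptome, while in HepLPC it was a gene of middling level.

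**Figure D1:**
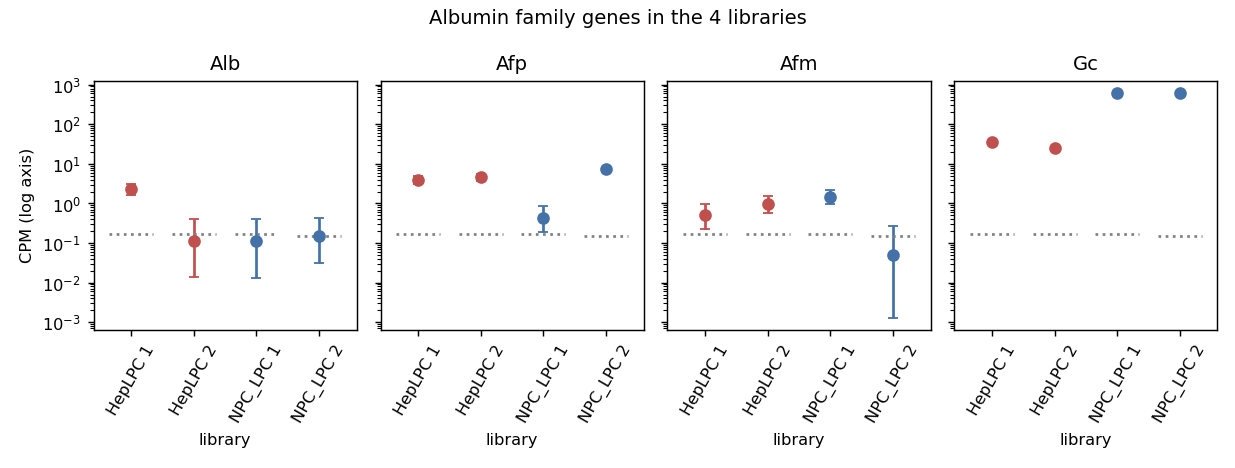
CPM on a log axis of Alb, Afp, Afm and Gc in each of the 4 libraries, HepLPC in red and NPC_LPC in blue. Bars are exact Poisson 95% intervals of the count and cover counting error only, and dotted lines mark 3 counts. Gc lies at 24.4 and 36.4 CPM in HepLPC, against 611 and 629 CPM in NPC_LPC, while for Alb, Afp and Afm a single library stands apart from the other of its group.

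Across the 12332 genes tested with the quasi-likelihood method of edgeR, 53 genes (0.43%) were called between the origins at an adjusted p under 0.05, with 0.227% called higher and 0.203% called lower in HepLPC. Of the 4 members, 3 had enough counts to be tested, and edgeR called 1 of these, Gc, lower in HepLPC. Nothing is read from this count, because the members were chosen with this contrast known. Leaving out HepLPC replicate 1 or HepLPC replicate 2 left no gene called at all, Gc included, with 2065 and 2258 genes at an unadjusted p under 0.05. Gc was the only 1 of the 4 members whose groups did not overlap. Such separation was common, as it held for 56.4% of tested genes in either direction, with 28.6% of tested genes lower in both HepLPC libraries than in both NPC_LPC libraries.

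Of the 198 tested genes with a mean in NPC_LPC at least as high as that of Gc, 4, with Gc among them, had a fitted log2 fold change as low as or lower than that of Gc. The others were Tnc, which encodes the matrix glycoprotein tenascin C, Tns1, which encodes tensin 1 of focal adhesions, and LOC108169013. Of all tested genes, 140, Gc included, had a fitted fold change at least as low.

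**Figure D2:**
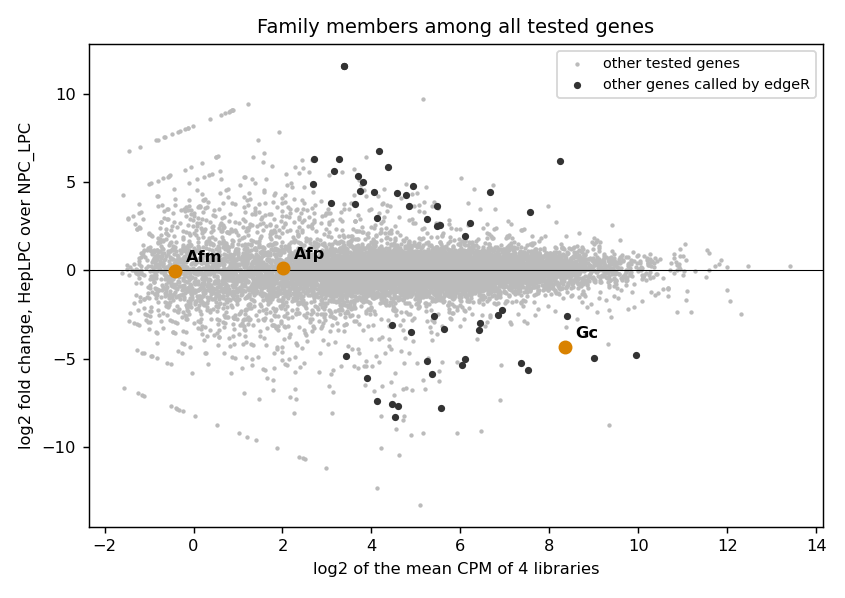
Fitted log2 fold change of HepLPC over NPC_LPC against the log2 of the mean CPM of the 4 libraries, for the 12332 tested genes. Grey points are genes not called by edgeR, black points are called genes and orange points are the 3 members that could be tested. Gc lies at -4.35, far below the grey band at its level, and Afp and Afm lie near 0.

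Alb was at or near the floor in 3 of the 4 libraries. It had 41 and 2 counts in HepLPC replicates 1 and 2, or 2.28 and 0.113 CPM, against 2 and 3 counts in NPC_LPC replicates 1 and 2, or 0.110 and 0.149 CPM. Only HepLPC replicate 1 stood above the floor, and HepLPC replicate 2 was level with the NPC_LPC libraries. The Poisson 95% interval of its count was 29.4 to 55.6 in HepLPC replicate 1 and 0.242 to 7.23 in HepLPC replicate 2. Alb did not pass the filter on low counts and was not tested. Over summed counts the ratio of HepLPC to NPC_LPC was 9.24 (95% interval 3.67 to 29.9, counting error only), and it rests on that library, since without it the log2 ratio of mean CPM was -0.18, against 3.21 with it.

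The 2 HepLPC libraries differed 20.2-fold in Alb (95% interval 5.25 to 173, counting error only). Among the 11806 genes with at least 20 counts in either HepLPC library, 0.669% differed between those libraries by at least this ratio. Other plasma protein genes leaned the same way in these libraries, and their part in the Alb value was not tested. Of the 14 tested plasma protein genes outside the family, 11 were higher in HepLPC replicate 1 than in replicate 2, where 49.5% of all tested genes were. In 4 of the 14, namely Apoa1, Fetub, Hp and Fgb, the ratio was at least 3-fold, as in 3.42% of all tested genes. The same lean was seen in NPC_LPC, where Alb was near the floor in both libraries. There 10 of the 14 were higher in replicate 1, where 46.7% of all tested genes were, and 4 of these, Hp, Fga, Itih2 and Azgp1, were at least 3-fold higher, as were 4.39% of all tested genes. Apoa1, which encodes the main protein of high-density lipoprotein, had 5.28 and 0.901 CPM in HepLPC replicates 1 and 2, with no count in NPC_LPC, and Fgb, which encodes the beta chain of fibrinogen, was at 9.77 and 0.901 CPM in HepLPC, against 1.43 and 1.14 CPM in NPC_LPC.

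Afp was low in all 4 libraries and did not separate the origins. It had 72 and 81 counts in HepLPC replicates 1 and 2, or 3.999 and 4.56 CPM, against 8 and 146 counts in NPC_LPC replicates 1 and 2, or 0.439 and 7.23 CPM. The HepLPC libraries were close, while NPC_LPC replicate 1 was the lowest and NPC_LPC replicate 2 the highest of all. The means were 4.28 ± 0.399 CPM in HepLPC and 3.83 ± 4.80 CPM in NPC_LPC (SD, n = 2 each), and the fitted log2 fold change of 0.16 had an SE of 1.13. The NPC_LPC libraries differed 16.5-fold (95% interval 8.14 to 38.9, counting error only), a ratio that 1.56% of the 11960 genes with at least 20 counts in either NPC_LPC library reached. Without NPC_LPC replicate 1 the log2 ratio of mean CPM was -0.74, and without NPC_LPC replicate 2 it was 3.29, so the sign depended on which NPC_LPC library was kept.

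Afm had the fewest counts of the tested members. It had 9 and 17 counts in HepLPC replicates 1 and 2, or 0.4998 and 0.958 CPM, against 27 counts and 1 count in NPC_LPC replicates 1 and 2, or 1.48 and 0.0495 CPM. The highest and the lowest library both belonged to NPC_LPC, so the groups overlapped. In NPC_LPC the replicates differed 29.9-fold, with a wide 95% interval from 4.93 to 1225 that covers counting error only. The fitted log2 fold change was -0.06 (SE 1.36), and leaving out NPC_LPC replicate 1 moved the log2 ratio of mean CPM to 3.90, against -0.07 with it. Afm and Afp went opposite ways between the NPC_LPC libraries, with Afm higher in replicate 1 and Afp higher in replicate 2, although the genes are adjacent.

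On the FPKM scale the order of the members differed between libraries apart from Gc, which came first in each. HepLPC replicate 1 had 15.1 FPKM of Gc, 1.30 of Afp, 0.794 of Alb and 0.157 of Afm. HepLPC replicate 2 had 10.1 FPKM of Gc, 1.41 of Afp, 0.437 of Afm and 0.0481 of Alb. In the NPC_LPC libraries Gc was more dominant.

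NPC_LPC replicate 1 had 249.6 FPKM of Gc, 0.474 of Afm, 0.0790 of Afp and 0.0464 of Alb, and NPC_LPC replicate 2 had 265.8 FPKM of Gc, 2.41 of Afp and 0.0647 of Alb, with Afm listed at 0. Gc stood apart from the other members by more than their spread in both groups. Afp, at 1.36 ± 0.0775 FPKM in HepLPC, stood above Alb at 0.421 ± 0.528 FPKM and Afm at 0.297 ± 0.198 FPKM there, and Alb and Afm did not differ beyond their spread. In NPC_LPC, Afp at 1.24 ± 1.64 FPKM, Afm at 0.237 ± 0.335 FPKM and Alb at 0.0555 ± 0.0129 FPKM did not differ beyond their spread (SD, n = 2 for each value).

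Counted together, the 4 genes held 777 and 534 counts in HepLPC replicates 1 and 2, against 11170 and 12854 counts in NPC_LPC replicates 1 and 2. Gc made up 84.3% (Wilson 95% interval 81.6 to 86.7) and 81.3% (77.8 to 84.4) of the family's counts in the HepLPC libraries, and 99.7% (99.5 to 99.8) and 98.8% (98.6 to 99.0) in the NPC_LPC libraries. The other 3 members summed to 6.78 and 5.63 CPM in HepLPC and 2.03 and 7.43 CPM in NPC_LPC, which overlap.

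Set beside other proteins that hepatocytes release into plasma, Gc went the opposite way. Of 28 such genes fixed as a list, 14 could be tested, 11 with a fitted fold change above 0 and 3 below, and their median log2 fold change was 2.12, against -0.003 over all tested genes. The fitted value of Apoa1, which had no count in NPC_LPC, cannot have moved that median. Its bound of at least 19.7-fold higher, against a floor of 3 counts per library, lies above the median as its fitted value does. The edgeR test called 1 of the 14 higher and none lower, with 7 higher and 0 lower at an unadjusted p under 0.05. At that unadjusted threshold 21.9% of all tested genes passed, with 10.4% of tested genes higher and 11.5% lower. DESeq2 called 4 higher and 0 lower, where it called 5.81% and 6.5% of all tested genes higher and lower. None of the 14 had both HepLPC libraries below both NPC_LPC libraries, as Gc had, while 8 had them above, where 27.9% of all tested genes did.

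The plasma protein gene that passed was Hpx, which encodes the haem carrier hemopexin. It had 48.0 and 43.03 CPM in HepLPC replicates 1 and 2, against 2.80 and 1.49 CPM in NPC_LPC, with a log2 fold change of 4.41 (SE 0.43; by edgeR, adjusted p = 0.0413), and it was not called without either HepLPC library. The most abundant of the list was Apob, the protein of low-density lipoprotein, at 3453 and 4723 CPM in HepLPC, against 2653 and 1470 CPM in NPC_LPC (edgeR adjusted p = 0.224). Rbp4, which encodes the retinol carrier of plasma, was at 492 and 487 CPM in HepLPC, against 54.5 and 92.9 CPM in NPC_LPC. It just missed the edgeR threshold with an adjusted p of 0.0504, and DESeq2 called it (adjusted p = 1.18e-12). Trf, the transferrin gene, was at 727 and 255 CPM in HepLPC, against 495 and 203 CPM in NPC_LPC, without a call by edgeR or DESeq2.

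By FPKM, Gc ranked 5th of the 32 plasma protein genes, family included, in both HepLPC libraries, after Rbp4, Trf, Apob and Hpx. In both NPC_LPC libraries it ranked 1st. Of the 28 genes outside the family, 9 had at most 3 counts in every library, among them Ahsg, Apoh, Plg and Vtn, as Alb had in 3 of the 4.

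**Figure D3:**
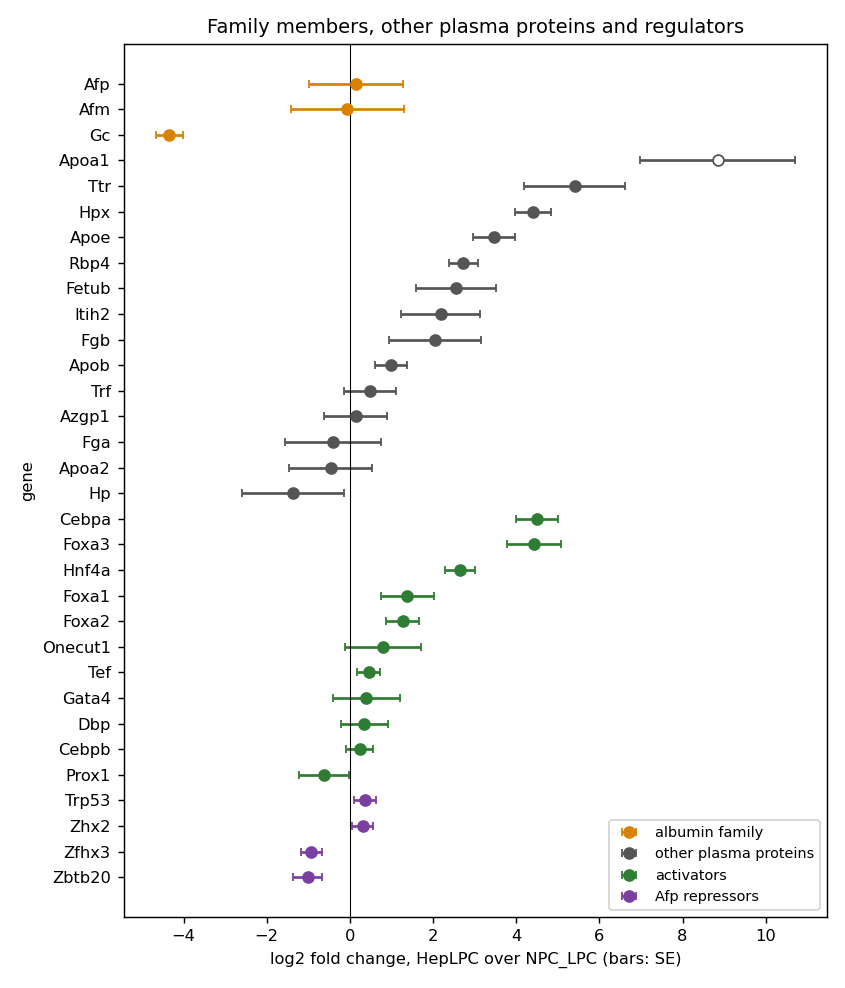
Fitted log2 fold change of HepLPC over NPC_LPC with its SE for the 3 tested members, the 14 tested genes of other plasma proteins, 11 transcription factors of hepatocytes and 4 repressors of Afp. The open point is Apoa1, which had no count in NPC_LPC and whose fitted value depends on the fitting. Gc lies at -4.35, on the opposite side from Hpx at 4.41 and Cebpa at 4.50.

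Transcription factors that are known to activate the family or other hepatocyte genes mostly had fitted values above 0, the opposite sign to Gc. Of 13 such factors 11 could be tested, with 10 fold changes above 0 and 1 below, with a median log2 fold change of 0.80. The edgeR test called 1 higher and 0 lower, with 4 higher and 0 lower at an unadjusted p under 0.05 (10.4% and 11.5% over all tested genes). DESeq2 called 4 higher and 0 lower (5.81% and 6.5% over all tested genes). The factor that passed was Cebpa, a regulator of hepatocyte differentiation, at 29.7 and 21.9 CPM in HepLPC against 1.48 and 0.792 CPM in NPC_LPC, with a log2 fold change of 4.50 (SE 0.50; by edgeR, adjusted p = 0.0419). It was not called without either HepLPC library.

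Hnf4a, a nuclear receptor that stands high in the hepatocyte network, was at 235 and 249 CPM in HepLPC, against 27.4 and 49.9 CPM in NPC_LPC (edgeR adjusted p = 0.057, DESeq2 adjusted p = 2.24e-10). Of the FOXA factors, which open liver chromatin, Foxa2 was at 90.2 and 120.4 CPM in HepLPC, against 58.3 and 28.9 CPM in NPC_LPC. It was called by DESeq2 (adjusted p = 0.0329) and not by edgeR (adjusted p = 0.156). Foxa3 was at 4.998 and 6.53 CPM in HepLPC, against 0.274 and 0.2475 CPM in NPC_LPC, and was called by DESeq2 (adjusted p = 1.695e-05) and not by edgeR (adjusted p = 0.0598). Foxa1, with 42.0 and 55.1 CPM in HepLPC against 7.515 and 29.8 CPM in NPC_LPC, was called by neither. Cebpb, a relative of Cebpa that rises in the acute phase response, was at 37.2 and 60.2 CPM in HepLPC, against 45.97 and 36.7 CPM in NPC_LPC, without a call by edgeR or DESeq2.

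Transcripts of the 4 genes whose proteins are known to repress Afp were detected in all 4 libraries. Zhx2, mapped in mice as the strain-dependent repressor of Afp, was at 44.3 and 53.2 CPM in HepLPC, against 39.7 and 39.2 CPM in NPC_LPC. Zbtb20, a zinc finger repressor of Afp, was at 63.8 and 35.8 CPM in HepLPC, against 111.6 and 90.0 CPM in NPC_LPC. Zfhx3, whose human counterpart binds an AT-rich element of the AFP gene, was at 50.8 and 38.4 CPM in HepLPC, against 82.1 and 87.3 CPM in NPC_LPC.

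The fourth, Trp53, which encodes p53, was at 314.5 and 259 CPM in HepLPC, against 195 and 250.2 CPM in NPC_LPC. The edgeR test called 0 of the 4, with 0 higher and 2 lower at an unadjusted p under 0.05 (10.4% and 11.5% over all tested genes). DESeq2 called Zfhx3 lower (adjusted p = 0.0363), where it called 6.5% of all tested genes lower. Between the NPC_LPC libraries Trp53, with the widest gap of the 4 there, had 195 and 250.2 CPM, where Afp had 0.439 and 7.23 CPM. Most genes were closer than Afp there, as 1.56% of the 11960 genes with at least 20 counts in either library reached its ratio. The part of the repressors in the Afp values was not tested.

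Other genes of the fetal liver did not form a common pattern with Afp. Of 9 listed genes 8 had a row and 5 could be tested, with 2 fold changes above 0 and 3 below (median log2 fold change -0.84). The edgeR test called 0, with 1 higher and 2 lower at an unadjusted p under 0.05 (10.4% and 11.5% over all tested genes). DESeq2 called 1 higher and 1 lower (5.81% and 6.5% over all tested genes). Gpc3 and Dlk1, surface and secreted proteins of hepatoblasts, had at most 3 counts in each library. Igf2bp1, an RNA-binding protein of fetal tissues, was at 79.1 and 52.6 CPM in HepLPC, against 32.6 and 27.3 CPM in NPC_LPC, and Igf2bp3 of the same family was at 57.5 and 68.7 CPM in HepLPC, against 31.1 and 3.42 CPM in NPC_LPC. Igf2bp3 was thus lowest in the NPC_LPC library where Afp was highest, while Hmga2 was highest in that library. The most abundant fetal gene, Peg3, was at 1270 and 453 CPM in HepLPC, against 3135 and 1662 CPM in NPC_LPC, called lower by DESeq2 (adjusted p = 0.0464) and not by edgeR (adjusted p = 0.219), and Hmga2 was at 398 and 257 CPM in HepLPC, against 381 and 791 CPM in NPC_LPC.

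Genes that handle the carriers and their cargo were mixed. Of 15 listed, 10 could be tested, with 5 fold changes above 0 and 5 below, with a median log2 fold change of -0.15. The edgeR test called 0, with 1 higher and 2 lower at an unadjusted p under 0.05 (10.4% and 11.5% over all tested genes). DESeq2 called 1 higher and 2 lower (5.81% and 6.5% over all tested genes). Vdr, the vitamin D receptor, was at 0.9996 and 1.35 CPM in HepLPC, against 5.27 and 9.11 CPM in NPC_LPC, with a log2 fold change of -2.61 (SE 0.58; by edgeR, adjusted p = 0.0977, DESeq2 adjusted p = 0.00531). The vitamin D hydroxylase genes Cyp2r1 and Cyp24a1 had at most 3 counts in every library.

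Lrp2, which encodes megalin, the endocytic receptor for vitamin D-binding protein and albumin, was at 6.55 and 3.94 CPM in HepLPC, against 1.26 and 0.545 CPM in NPC_LPC (edgeR adjusted p = 0.133, DESeq2 adjusted p = 0.0309). Its partner Cubn was at 8.16 and 6.37 CPM in HepLPC, against 3.40 and 5.59 CPM in NPC_LPC. Fcgrt, the receptor that returns albumin to the circulation, was at 2.06 and 4.45 CPM in HepLPC, against 11.4 and 5.79 CPM in NPC_LPC, without a call. Its light chain gene B2m, which also serves class I histocompatibility proteins, was at 878 and 636 CPM in HepLPC, against 4201 and 3563 CPM in NPC_LPC (edgeR adjusted p = 0.057, DESeq2 adjusted p = 2.09e-12).

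Of the other abundant genes in this list, Sparc, an extracellular albumin-binding protein, was at 351 and 664 CPM in HepLPC, against 617 and 652 CPM in NPC_LPC. Cav1, a caveolar protein, was at 171 and 117 CPM in HepLPC, against 137.5 and 133 CPM in NPC_LPC. Gsn, which encodes gelsolin, the actin-severing partner of vitamin D-binding protein in clearing actin from plasma, was at 28.8 and 123 CPM in HepLPC, against 219 and 131 CPM in NPC_LPC. In Gsn, HepLPC replicate 2 came close to NPC_LPC replicate 2, and neither edgeR nor DESeq2 called Gsn, Cav1 or Sparc.

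The genes around Gc did not share the size of its difference. On one side, Slc4a4, a bicarbonate cotransporter 178 kb away, was at 134.6 and 119.8 CPM in HepLPC, against 239.7 and 105 CPM in NPC_LPC, with a log2 fold change of -0.44 (SE 0.41). On the other side, Npffr2, 68.9 kb away, had 2 counts in NPC_LPC replicate 2 and none elsewhere, and Adamts3, 216 kb away, had at most 12 counts. Beyond these, Ankrd17, 769 kb from Gc and 92.2 kb from Alb, was at 406 and 270.5 CPM in HepLPC, against 522 and 504.3 CPM in NPC_LPC, with a log2 fold change of -0.60 (SE 0.29). None of the 7 tested neighbours in these positions, Rufy3, Grsf1, Mob1b, Dck, Slc4a4, Cox18 and Ankrd17, was called by edgeR or DESeq2. Over all tested genes edgeR called 0.43% and DESeq2 12.3%, so nothing is read from the lack of calls among 7 genes.

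Beyond Afm, Rassf6, which encodes a Ras association domain protein and lies 49.5 kb away, was at 31.88 and 31.99 CPM in HepLPC, against 10.4 and 7.03 CPM in NPC_LPC, with a log2 fold change of 1.88 (SE 0.34; by edgeR, adjusted p = 0.0787, DESeq2 adjusted p = 1.49e-04). The chemokine gene Cxcl5, 206 kb from Afm, was at 247 and 180.0 CPM in HepLPC, against 875 and 318 CPM in NPC_LPC (edgeR adjusted p = 0.183, DESeq2 adjusted p = 0.0284). Between Afm and Rassf6, 7.08 kb beyond Afm, lies Albfm1, a further gene of the family that the tables list under an older symbol. It had 2 counts and 1 count in HepLPC, against 0 counts and 1 count in NPC_LPC. Ppbp, a platelet chemokine gene 215 kb from Afm, had 16 and 8 counts in HepLPC, against 13 and 2 counts in NPC_LPC, and was called by neither method. Pf4, another platelet chemokine gene 218.9 kb away, had no count in HepLPC, against 3 and 0 counts in NPC_LPC. Over the 806 tested genes with a position on chromosome 5 the median log2 fold change was 0.14, and 15 of these, Gc included, had a fitted value as low as or lower than that of Gc.

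**Figure D4:**
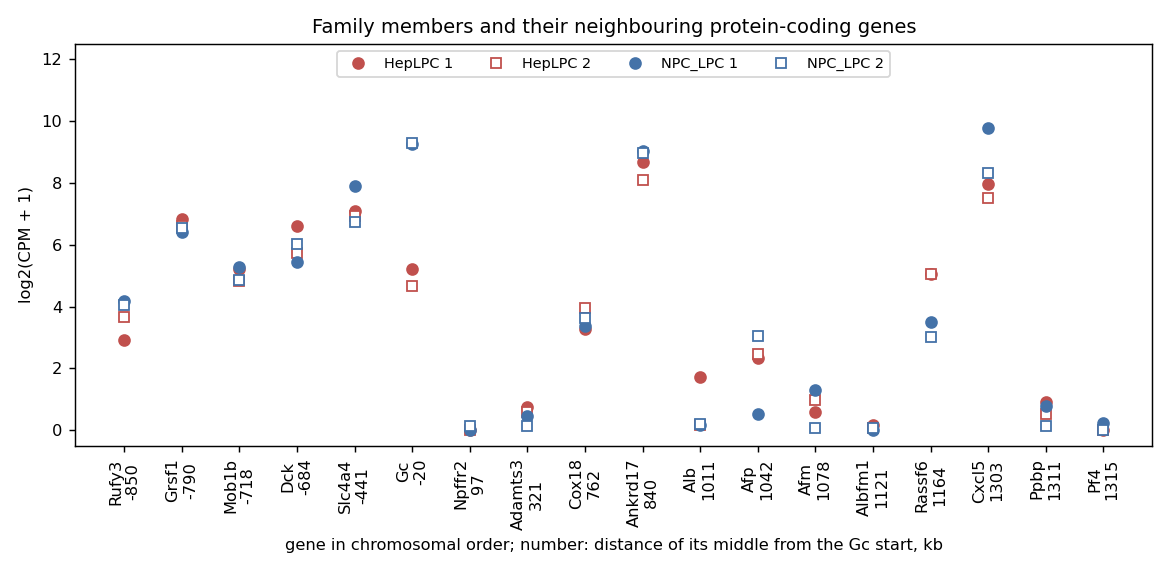
log2(CPM + 1) in each library for the family members and the nearest protein-coding genes on either side, in chromosomal order, with the distance of each gene's middle from the Gc start in kb. HepLPC libraries are red and NPC_LPC libraries blue, replicate 1 as filled circles and replicate 2 as open squares. At Gc the red and blue points are far apart, and at its tested neighbours Slc4a4, Cox18 and Ankrd17 they are close together.

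Markers of other liver cell types were looked at beside the Gc difference, and their part in it was not tested. Of 5 leukocyte markers, Clec4f had no count and Adgre1 at most 1 count in any library, and the 5 together had 22.1 and 13.4 CPM in HepLPC and 80.4 and 20.6 CPM in NPC_LPC, nearly all of it Cd68. Of 6 stellate cell and fibroblast markers, Lrat had no count in any library, and the 6 together had 13.7 and 8.56 CPM in HepLPC and 3.95 and 15.4 CPM in NPC_LPC. Reln, a marker of stellate cells, was at 8.775 and 5.41 CPM in HepLPC, against 0.494 and 1.14 CPM in NPC_LPC, and DESeq2 called it higher (adjusted p = 0.00187; by edgeR, adjusted p = 0.0947). Col1a1, a collagen chain of fibroblasts, was at 4.05 and 1.80 CPM in HepLPC, against 2.74 and 11.8 CPM in NPC_LPC, without a call. Acta2, of the same list, had 46 counts, or 2.28 CPM, in NPC_LPC replicate 2 and no count in any other library. It was not tested. Of 5 endothelial markers, Pecam1 had at most 1 count, and the 5 together had 7.16 and 5.97 CPM in HepLPC and 2.08 and 3.61 CPM in NPC_LPC.

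The 4 mesothelial markers summed to 199 and 788 CPM in HepLPC and 579 and 232 CPM in NPC_LPC, nearly all of it Msln. The 6 biliary markers, with Epcam at or below 1.75 CPM, summed to 4672 and 2072 CPM in HepLPC and 9308 and 4575 CPM in NPC_LPC, mainly from Spp1 and Krt19, which went opposite ways. Spp1, the osteopontin gene, was at 3024 and 904 CPM in HepLPC, against 8939 and 4201 CPM in NPC_LPC (DESeq2 adjusted p = 0.0291; edgeR adjusted p = 0.212). Krt19, a keratin gene of bile ducts, was at 1434 and 884.5 CPM in HepLPC, against 110.9 and 274.5 CPM in NPC_LPC (DESeq2 adjusted p = 3.49e-06; edgeR adjusted p = 0.0841). Krt7, another keratin gene of the list, was at 103.1 and 165.5 CPM in HepLPC, against 1.43 and 17.2 CPM in NPC_LPC. Sox9 was at 109.1 and 115.4 CPM in HepLPC, against 255.6 and 81.5 CPM in NPC_LPC. Neither edgeR nor DESeq2 called Krt7 or Sox9. Of the 5 tested biliary markers, DESeq2 called 1 higher and 1 lower (5.81% and 6.5% over all tested genes). The edgeR test called 0, with 2 higher and 1 lower at an unadjusted p under 0.05 (10.4% and 11.5% over all tested genes). Each of these 5 sums differed more between the NPC_LPC libraries than Gc, which differed 1.03-fold between them. Most single genes did too. Of the 11960 genes with at least 20 counts in either NPC_LPC library, 92.7% differed by at least the ratio of Gc. Nothing about the Gc difference is read from these sums.

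The genes whose log2 CPM over the 4 libraries was most like that of Gc were Slc10a7 on chromosome 8, Agbl3 on chromosome 6 and Il15 on chromosome 8, each with a Pearson r of at least 0.9999. They shared the shape and not the size of the difference, as Slc10a7 was at 21.3 and 20.3 CPM in HepLPC, against 30.3 and 30.4 CPM in NPC_LPC. For Afp they were Tmem219 on chromosome 7 (r = 0.9999), Dnajc5 on chromosome 2 (r = 0.9996) and Thnsl1 on chromosome 2 (r = 0.9995). Tmem219, a transmembrane protein gene, had 3.94 and 5.13 CPM in HepLPC and 0.0549 and 9.95 CPM in NPC_LPC, and so shared the wide gap of Afp between the NPC_LPC libraries. With 4 libraries such values are easily reached, since 173 other genes had an r of at least 0.99 with Gc and 39 with Afp, of 12331 each. They describe these libraries only.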

How the data were processed

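Per the labels' protocols, total RNA was extracted on columns, and a stranded mRNA kit gave the paired-end libraries. The submitters' processing notes name Trimmomatic, HISAT2, Cufflinks, HTSeq and DESeq and the build mm10. Not given in the sources used here were versions, annotation and the strand setting of counting. Per the file headers, the authors deposited a read count and an FPKM value per gene symbol for each library. Counts were tested with edgeR 4.0.16 in R 4.3.3 (quasi-likelihood test, TMM, filterByExpr, group as the only term, two-sided, Benjamini-Hochberg over 12332 genes, threshold 0.05). The pipeline was also run on simulated counts, with the same replicate spread for every gene and differences only in genes with many counts. That run does not cover genes as low or as uneven between replicates as Alb, Afp and Afm. SEs were derived from the F statistic. CPM used library totals times TMM factors. Intervals are exact Poisson for counts, exact binomial for ratios of counts and Wilson for shares; they cover counting error only, since PCR reads without molecular identifiers are not independent molecules. The p-values measure only the spread between these libraries, which may be technical. Alternatives were DESeq2 1.42.0, limma 3.58.1 on log2(FPKM + pseudocount), other scalings and filters, the replicate block and leaving out each library. Positions and promoters came from RefSeq tables (GRCm38.p6), in which all 4 members were found. Protein sequences were not used here.

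The members and lists were chosen with earlier results of these data known. Named were the members, the genes of each list called by edgeR, its most abundant genes, all repressors, the 5 nearest protein-coding genes on each side and the 3 genes most like a member with a mean of at least 1 CPM; others named, such as Apoa1, Fgb, Vdr, Lrp2, Cubn, Fcgrt, Foxa1, Foxa3, Reln, Krt19 and Spp1, were chosen after their values were seen. 2 listed transcription factors are not reported here.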

Additional observations from a re-analysis of the deposited data

How the results depend on the processing

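The log2 fold change of Gc stayed between -4.65 and -4.09 in all alternatives run. It was the log2 ratio of mean CPM in most of them. The replicate block and DESeq2 gave a fitted value, and limma a difference of mean log2(FPKM + pseudocount). Leaving out each library in turn moved the log2 ratio of mean CPM from -0.18 to 4.14 for Alb. For Afp it moved from -0.74 to 3.29, and for Afm from -1.02 to 3.90. The direction of these 3 members thus rests on single libraries. Alb had no value in the block, DESeq2 and filtered FPKM fits because it was too low. The number of genes called, 53, was 593 without the filter, 136 with the replicate block, 1517 with DESeq2, 111 with limma on log2(FPKM + 1) for a mean FPKM of at least 0.5 and 0 with limma on unfiltered log2(FPKM + 1), where 2820 genes had an unadjusted p under 0.05. It ranged from 0 to 377 without each library. The 2 called genes of the 5 lists became 4 with library totals, 8 without the filter, 5 with the block, 14 with DESeq2, 7 and 5 with limma at pseudocounts of 1 and 0.1, 0 with unfiltered limma and 0 to 8 without each library. In the fits with all 4 libraries, the count of called members was 1, except for 0 with unfiltered limma. This alternative set was added after seeing the data, and nothing is read from it, because the members were chosen with this contrast known. The cause of the changes in these counts was not tested. The deviations of same-numbered libraries had a correlation of -0.034 over tested genes. This value cannot show whether same-numbered libraries were prepared together. The fitted value of Afp was 1.11 with the replicate block. Depth limits Alb and Afm, whose counts ran from 1 to 41.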
